A study of Mus musculus with 12 samples.

Results

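Aquaporins are membrane channels that carry water, and some also carry glycerol or other small solutes. The 8 aquaporin genes followed here were chosen by symbol as family members of the proximal tubule and collecting duct, together with Aqp8. Aqp8 was included because it is higher in the knockout. The members are 8 of 38924 genes with a row in each count table. The knockout-to-wild-type difference of Aqp8 is therefore given as a description, with no test. The members and the gene and marker lists below were chosen with earlier results of these data known. Counts of their called genes beside the share of all genes describe these genes and are not independent of that choice.

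The study sequenced mRNA of whole mouse kidneys (C57BL/6J background) in 12 libraries, 3 in each of 4 groups: KO ZT16, KO ZT4, WT ZT16 and WT ZT4. The KO mice were Bmal1lox/lox/Pax8-rtTA/LC1 animals given doxycycline at 2 mg/ml in drinking water for 2 weeks from an age of 8 weeks, which deletes the clock gene Arntl (the gene for the BMAL1 protein) in renal tubular cells, and WT mice were littermates. The labels do not state which of the 3 alleles the WT littermates carried or whether they also drank doxycycline. ZT4 lies in the light phase and ZT16 in the dark phase of a 12-hour light and 12-hour dark cycle. The Pax8 promoter drives the transgene in tubular epithelium, so vessels, interstitium and blood in the same kidney keep Arntl.

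In the kidney, Aqp1 lets the proximal tubule and thin descending limb reabsorb filtered water. In the collecting duct, vasopressin acting through cyclic AMP moves Aqp2 into the apical membrane, and Aqp3 and Aqp4 let the water leave through the basolateral membrane. Aqp7 carries water and glycerol in the straight proximal tubule, Aqp11 sits in the endoplasmic reticulum of proximal tubule cells, Aqp6 lies in vesicles of intercalated cells in rat, and Aqp8 carries water and is known from intracellular sites.

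Gene counts summed to between 25628887 and 38043491 per library. One library stood apart: mitochondrially encoded genes were 22.3% of the counted reads of KO ZT16 replicate 2. They were 14.1% and 14.0% of those of replicates 4 and 6 of that group and 12.6% to 12.8% in KO ZT4, against 18.7% to 22.4% in WT ZT16 and 16.3% to 17.96% in WT ZT4. Where leaving KO ZT16 replicate 2 out changed the call of an aquaporin, that is said. Why this library differed was not tested. Marker sums and the most similar genes use all 12 libraries. Arntl itself had 12.3 to 15.0 CPM (the read count scaled to the TMM library size) in KO ZT16 and 14.4 to 16.2 CPM in KO ZT4, against 8.63 to 11.03 CPM in WT ZT16 and 13.8 to 20.01 CPM in WT ZT4. These are counts over the whole gene and all cells of the kidney, and the deleted exons are not named in the sources used here, so they do not check the genotype labels. Other clock genes differed between the labelled genotypes at both times. Nr1d1, a repressor that BMAL1 activates, had log2 fold changes of KO over WT of -0.97 ± 0.17 at ZT16 and -1.89 ± 0.15 at ZT4 (adjusted p = 0.00561 and 2.8e-05). Dbp, another BMAL1 target, had -1.45 ± 0.20 and -1.56 ± 0.20 (0.00115 and 0.000847), and Npas2, a partner of BMAL1, had 3.51 ± 0.19 and 2.21 ± 0.17 (1.39e-06 and 2.14e-05). Markers of the labelled tissue were abundant: 6 markers of the S1 and S2 proximal tubule summed to 7757 to 10632 CPM per library. The labels leave unsaid whether each library is from its own mouse, so the p-values here stand for spread among libraries, which may be technical.

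Ranked by level per length (CPM per kilobase of annotated exon), Aqp1 was by far the most abundant aquaporin mRNA, with a median of 369 over the 12 libraries. Aqp2, at a median level of 99.4, and Aqp3, at 31.5, followed. None of these 3 overlapped its neighbour in the order in any library. Below them came Aqp6 at a median level of 9.83, Aqp7 at 7.40, Aqp4 at 5.77, Aqp8 at 3.95 and Aqp11 at 3.47 CPM per kilobase, and each of these neighbours in the order overlapped. Per base of the longest annotated transcript, Aqp11 (5.64) came before Aqp8 (4.20). The place of Aqp8 in that order differed by genotype: it held the fifth place in KO ZT16 and the fourth in KO ZT4, against the eighth in both WT groups.

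**Figure D1:**
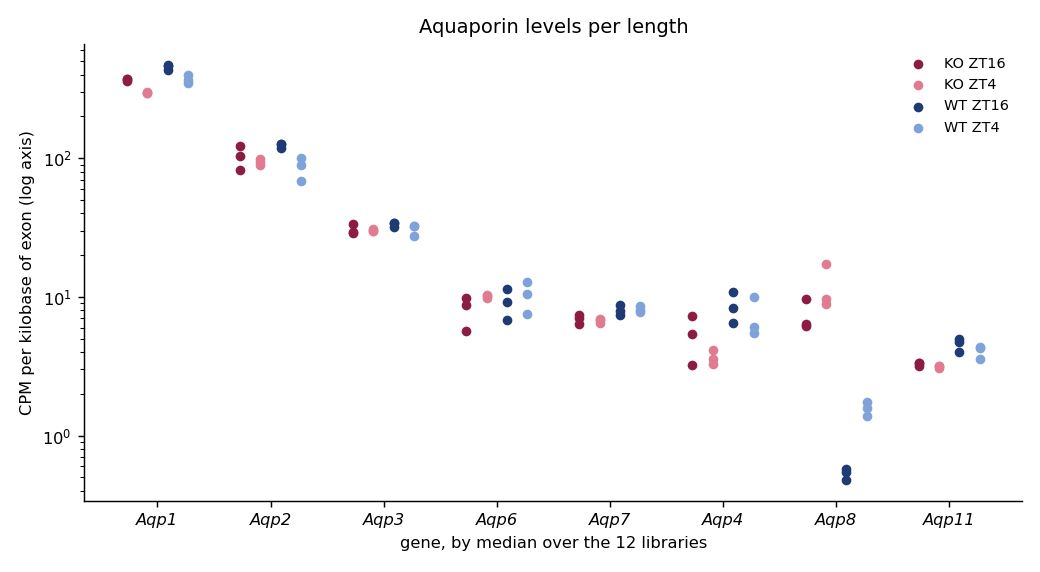
Level of each aquaporin in CPM per kilobase of exon (log axis), 1 point per library and 4 groups per gene, ordered by the median over the 12 libraries. Aqp1, Aqp2 and Aqp3 form 3 separate steps, the other 5 genes overlap, and Aqp8 spans from 0.478 in WT ZT16 to 17.2 in KO ZT4.

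The other 4 members of the family that were looked up were nearly silent. Mip (the lens channel) had 0 counts in all 12 libraries, which allows up to 0.113 CPM at the lowest depth. Aqp12 had 2 counts in 1 library, Aqp9 had 0 to 4 counts per library and Aqp5 had 2 to 9. None of these entered a test.

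Aqp8 (ENSMUSG00000030762, GRCm38 chr7:123462291-123468004, plus strand) showed the widest difference between genotypes. In KO ZT16 it had 15.3, 9.74 and 10.0 CPM in replicates 2, 4 and 6, and in KO ZT4 it had 15.3, 14.0 and 27.3 CPM, against 0.756, 0.869 and 0.902 CPM in WT ZT16 replicates 1, 3 and 5 and 2.51, 2.74 and 2.18 CPM in WT ZT4. All 6 KO libraries lay above all 6 WT libraries, and KO ZT4 replicate 6 was the highest of them. A separation in either direction was seen in 3.62% of all genes tested. The fitted log2 fold change of KO over WT was 3.79 ± 0.31 (SE) at ZT16, a 13.8-fold difference, and 2.93 ± 0.27 at ZT4, a 7.60-fold difference. Among 16150 tested genes these ranked as number 6 from the top at ZT16 and number 13 at ZT4. Since Aqp8 was chosen for its rise in KO, the ranks and the separation only describe it. Without KO ZT16 replicate 2 the log2 fold change at ZT16 was 3.53. The counts behind the WT ZT16 values were 22 to 31 reads per library, so they carry more counting error than those of any other member.

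Aqp8 took a small share of aquaporin mRNA even where it was high. Of the summed level per length of the 8 genes, it made up 1.18% to 1.72% in KO ZT16 and 1.96% to 3.69% in KO ZT4, against 0.0730% to 0.0884% in WT ZT16 and 0.283% to 0.335% in WT ZT4. Aqp1 made up 63.5% to 73% in every library. Cell types outside the kidney that are known for Aqp8 were looked for by their markers. Of 8 pancreatic acinar markers Pnlip was at 0 in all libraries, and the list summed to 0.0342 to 0.0723 CPM in KO ZT16, 0.0528 to 0.116 CPM in KO ZT4, 0.0347 to 0.137 CPM in WT ZT16 and 0.0597 to 0.0752 CPM in WT ZT4. The 7 hepatocyte markers summed to 133 to 157 CPM in KO ZT16 and 149 to 208 CPM in KO ZT4, against 60.6 to 84.6 CPM in WT ZT16 and 79.4 to 94.7 CPM in WT ZT4. Nearly all of that sum was Ttr, the thyroid hormone carrier, at 130 ± 13.9 CPM in KO ZT16 and 160.1 ± 32.5 CPM in KO ZT4, against 66.8 ± 11.4 CPM in WT ZT16 and 81.0 ± 7.54 CPM in WT ZT4 (SD, n = 3 each). The liver enzyme gene Tat was at 0 in all libraries, 4 of the 7 markers averaged under 1 CPM, and 3 of the 7 could be tested. Over both times Ttr rose by 0.97 ± 0.11 and Apoc3, a lipoprotein component, by 0.61 ± 0.12 on the log2 scale (adjusted p = 0.000125 and 0.00548), and Hp had 0.06 ± 0.42 (0.943). The part of these markers in the Aqp8 difference was not tested.

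Since BMAL1 with CLOCK binds the E-box CACGTG, the 250 bases before the RefSeq start of each member (GRCm38.p6) were searched for it and for other clock and cyclic AMP motifs, together with the first 50 bases of the gene. Windows were given for 7 of the 8 members, and Aqp4 had none. Aqp8, Aqp2 and Aqp6 each held 1 E-box. The 250 bases before the start are printed for these 3, and for Aqp1, which held no searched motif, as a comparison. Letters in capitals are motif matches: the E-box in Aqp8, Aqp2 and Aqp6, and in Aqp2 also CGTCA, the reverse complement of the cyclic AMP half-site TGACG. All 4 lie on the plus strand, Aqp8 at chr7:123462044-123462293, Aqp2 at chr15:99578806-99579055, Aqp6 at chr15:99600950-99601199 and Aqp1 at chr6:55336049-55336298.
Aqp8: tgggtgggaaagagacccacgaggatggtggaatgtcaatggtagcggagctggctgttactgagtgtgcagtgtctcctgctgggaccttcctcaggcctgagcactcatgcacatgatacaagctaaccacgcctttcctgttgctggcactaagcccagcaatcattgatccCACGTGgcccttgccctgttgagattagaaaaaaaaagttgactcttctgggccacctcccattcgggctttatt
Aqp2: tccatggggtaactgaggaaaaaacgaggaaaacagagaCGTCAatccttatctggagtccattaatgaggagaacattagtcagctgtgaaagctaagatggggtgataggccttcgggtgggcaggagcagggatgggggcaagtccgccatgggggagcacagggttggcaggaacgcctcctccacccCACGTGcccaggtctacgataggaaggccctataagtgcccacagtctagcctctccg
Aqp6: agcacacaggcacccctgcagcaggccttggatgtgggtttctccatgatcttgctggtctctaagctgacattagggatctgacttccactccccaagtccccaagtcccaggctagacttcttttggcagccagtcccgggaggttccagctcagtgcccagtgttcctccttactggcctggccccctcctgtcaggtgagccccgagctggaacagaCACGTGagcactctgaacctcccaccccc
Aqp1: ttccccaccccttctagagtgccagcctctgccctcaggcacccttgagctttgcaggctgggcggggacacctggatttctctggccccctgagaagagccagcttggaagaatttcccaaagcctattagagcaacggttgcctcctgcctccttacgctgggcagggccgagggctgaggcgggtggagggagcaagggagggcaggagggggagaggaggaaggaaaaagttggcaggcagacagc

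The E-box began 75 bases before the RefSeq start in Aqp8, 58 bases before it in Aqp2 and 29 bases before it in Aqp6. Over all 32851 RefSeq windows of 300 bases, 7.15% held CACGTG, which reads the same on both strands. No member window held the E-prime box CACGTT (4.68% of all windows), the D-box TTATGNAA (3.38%) or the full cyclic AMP element TGACGTCA (1.79%). The half-site AGGTCA, found in 16.3% of all windows, was in windows of Aqp7 and Aqp11. TGACG, which is contained in the full element, was in that of Aqp2 and in 20.8% of all windows. All motifs were searched on both strands, and a match is a stretch of letters, not a measured binding site. The annotated GENCODE starts of Aqp1 and Aqp6 lie downstream of the RefSeq starts used here.

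Leaving Aqp8 aside, the comparison of KO with WT over both times asked whether loss of the tubular clock is accompanied by other aquaporin levels. Aqp1, Aqp4, Aqp7 and Aqp11 fell in KO, Aqp2, Aqp3 and Aqp6 did not pass the test, and all 7 fitted log2 fold changes were below 0. The test was edgeR's quasi-likelihood test with Benjamini-Hochberg adjustment over 16150 genes, called at an adjusted p under 0.05, and it called 11.4% of all genes, 6.04% higher and 5.31% lower. The median log2 fold change was -0.24 over the 7 genes and 0.01 over all genes tested. The 7 genes were also chosen with earlier results of these data known, so these shares and medians are a description. In bulk RNA, fewer cells of a type and less RNA per cell cannot be told apart.

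**Figure D2:**
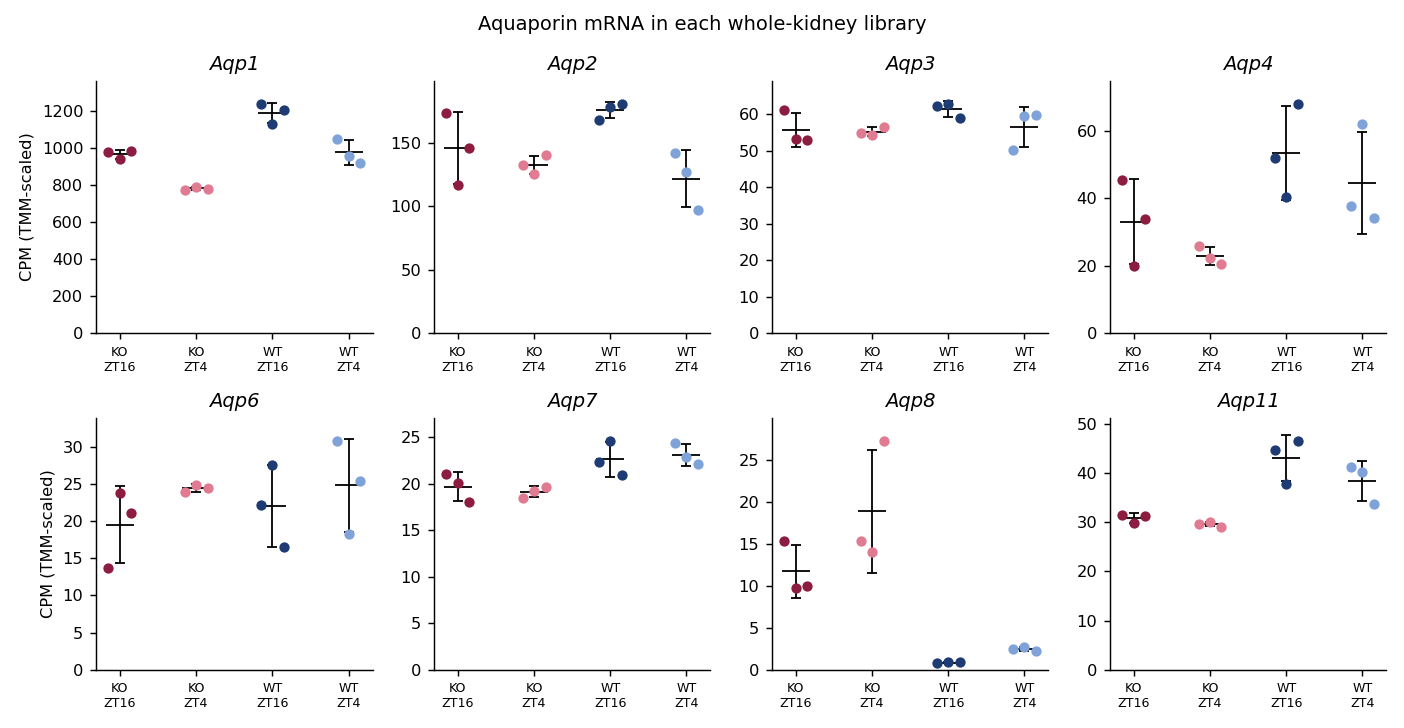
TMM-scaled CPM of the 8 aquaporins, 1 point per library, in KO ZT16, KO ZT4, WT ZT16 and WT ZT4, with the mean and SD of 3 libraries in black. Aqp8 and Aqp11 are the only 2 whose 6 KO and 6 WT libraries do not overlap, Aqp8 higher and Aqp11 lower in KO. Of all genes tested, 3.62% showed such a separation.

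Aqp1 (ENSMUSG00000004655, chr6:55336432-55348555, plus strand) is the water channel of the proximal tubule and thin descending limb. It had 979.7, 939 and 982 CPM in KO ZT16 and 775, 792 and 779 CPM in KO ZT4, against 1238, 1131 and 1204 CPM in WT ZT16 and 1049, 957 and 922 CPM in WT ZT4. Within each time the 3 KO libraries lay below the 3 WT libraries, a separation in either direction that 15.9% of all genes showed at ZT16 and 37.7% at ZT4. Across times KO ZT16 overlapped WT ZT4. Over both times Aqp1 fell by 0.31 ± 0.05 on the log2 scale (SE), a change of -19.4%, with adjusted p = 0.00334. That call held without each of the 12 libraries in turn (adjusted p 0.000372 to 0.0141).

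By time, the size of the Aqp1 difference was alike and the calls stood near the threshold. At ZT16 its log2 fold change was -0.30 ± 0.08 (adjusted p = 0.0521), and at ZT4 it was -0.32 ± 0.08 (adjusted p = 0.0448). The ZT4 call was lost when any 1 library other than KO ZT16 replicate 2 was left out (adjusted p 0.0549 to 0.202), with log2 fold changes between -0.36 and -0.26. At ZT16 Aqp1 passed when KO ZT16 replicate 2 (adjusted p = 0.00751) or WT ZT4 replicate 1 (0.0486) was left out.

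Aqp11 (ENSMUSG00000042797, chr7:97724006-97738289, minus strand) encodes the channel of the endoplasmic reticulum whose loss gives kidney cysts in mice. It had 31.6, 29.8 and 31.3 CPM in KO ZT16 and 29.7, 30.05 and 29.1 CPM in KO ZT4, against 44.6, 37.7 and 46.6 CPM in WT ZT16 and 41.3, 40.3 and 33.8 CPM in WT ZT4. All 6 KO libraries lay below all 6 WT libraries, as they did, or lay above them, in 3.62% of all genes tested. Over both times the log2 fold change was -0.43 ± 0.07 (adjusted p = 0.00197), a change of -25.6%, and it passed without each of the 12 libraries in turn (adjusted p 0.000294 to 0.0084).

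At ZT16 Aqp11 was the only 1 of the 7 genes other than Aqp8 that was called, at -0.48 ± 0.10 on the log2 scale (adjusted p = 0.0168), where 4.03% of all genes were called. At ZT4 its log2 fold change was -0.38 ± 0.10 (adjusted p = 0.0602). The ZT16 call was lost without WT ZT16 replicate 1 (adjusted p = 0.0641), WT ZT16 replicate 5 (0.075), KO ZT16 replicate 4 (0.0748) or KO ZT16 replicate 6 (0.0545), and in a fit of the 6 ZT16 libraries alone (0.134). At ZT4 it passed without WT ZT4 replicate 5 (0.0343), WT ZT16 replicate 3 (0.0443) or KO ZT16 replicate 2 (0.016).

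Aqp7 (ENSMUSG00000028427, chr4:41033074-41048139, minus strand) is the water and glycerol channel of the straight proximal tubule. It had 21.0, 20.03 and 18.01 CPM in KO ZT16 and 18.5, 19.2 and 19.7 CPM in KO ZT4, against 22.3, 24.6 and 20.9 CPM in WT ZT16 and 24.4, 22.8 and 22.1 CPM in WT ZT4. Only KO ZT16 replicate 2, at 21.0 CPM, reached above the lowest WT library. Over both times Aqp7 fell by 0.24 ± 0.06 on the log2 scale (adjusted p = 0.0328), a change of -15.1%. This call was lost in 9 of the 12 fits with 1 library left out, held without WT ZT4 replicate 5, WT ZT16 replicate 5 or KO ZT16 replicate 2, and had adjusted p up to 0.0864 in the others. It was also lost with no filter on low counts (0.0638). Separately, its log2 fold change was -0.20 ± 0.09 at ZT16 (adjusted p = 0.3) and -0.27 ± 0.09 at ZT4 (0.136).

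Beside these 3 genes of the proximal tubule, the 6 S1 and S2 markers summed to 7757 to 10020 CPM in KO ZT16 and 10342 to 10539 CPM in KO ZT4, against 8634 to 9526 CPM in WT ZT16 and 9721 to 10632 CPM in WT ZT4. None of the 6 was called in any comparison of KO with WT. The 5 S3 markers summed to 2461 to 2554 CPM in KO ZT16 and 2251 to 2512 CPM in KO ZT4, against 2496 to 3051 CPM in WT ZT16 and 2425 to 2922 CPM in WT ZT4. A pair of amino acid transporters of the S3 list moved in opposite directions over both times, Slc7a12 at 2.49 ± 0.17 and Slc7a13 at -0.64 ± 0.11 on the log2 scale. The 4 thin descending limb markers summed to 166 to 238 CPM in KO ZT16 and 156 to 177 CPM in KO ZT4. In WT they summed to 194 to 239 CPM at ZT16 and 150 to 207 CPM at ZT4. Over both times 3 were above 0 and 1 below (median log2 fold change 0.16), and none was called. Aqp1 is also known from red cells and vessels. The 5 red blood cell markers summed to 175 to 494 CPM in KO ZT16 and 161 to 241 CPM in KO ZT4, against 277 to 376 CPM in WT ZT16 and 195 to 452 CPM in WT ZT4, and all 5 had log2 fold changes below 0 over both times (median -0.39, adjusted p 0.26 to 0.539). The 7 endothelial markers summed to 440.1 to 479.9 CPM in KO ZT16 and 449 to 466 CPM in KO ZT4, against 473 to 489 CPM in WT ZT16 and 478 to 519 CPM in WT ZT4. Over both times 4 of these 7 were above 0 and 3 below (median log2 fold change 0.002), and none was called. The 5 macrophage markers summed to 85.5 to 96.1 CPM in KO ZT16 and 90.3 to 98.8 CPM in KO ZT4, against 104 to 115 CPM in WT ZT16 and 108 to 137 CPM in WT ZT4. All 5 were below 0 over both times (median -0.33), and Csf1r, a growth factor receptor of macrophages, was called at -0.33 ± 0.06 (adjusted p = 0.00247). The part of the S3, thin descending limb, red cell, endothelial and macrophage markers in the differences of Aqp1, Aqp7 and Aqp11 was not tested.

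**Figure D3:**
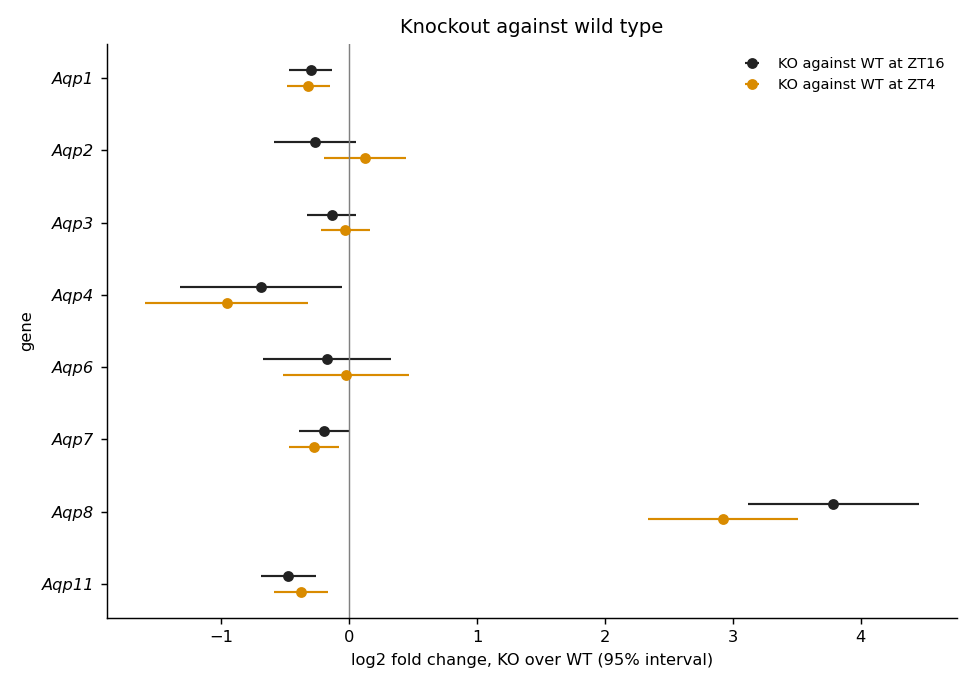
Fitted log2 fold change of KO over WT for each aquaporin at ZT16 (black) and ZT4 (orange), with 95% intervals, from 1 fit of the 12 libraries. Aqp8 lies near 3.79 and 2.93 and is shown as a description, while the other genes lie between -0.96 and 0.12.

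Among the genes named above for the collecting duct, Aqp4 differed most and was also the most variable. Whole-kidney counts do not show which cells its reads came from. Aqp4 (ENSMUSG00000024411, chromosome 18, minus strand), a basolateral channel of principal cells, had 45.4, 20.03 and 33.9 CPM in KO ZT16 and 25.9, 22.3 and 20.6 CPM in KO ZT4, against 52.0, 40.3 and 68.0 CPM in WT ZT16 and 37.8, 62.0 and 34.1 CPM in WT ZT4. The KO ZT4 libraries lay below all WT libraries, and KO ZT16 replicate 2, at 45.4 CPM, lay among the WT values. Between the genotypes at ZT4, 37.7% of all genes separated in either direction. Over both times the log2 fold change was -0.83 ± 0.21 (adjusted p = 0.0239), a change of -43.6%. At ZT16 it was -0.69 ± 0.29 (adjusted p = 0.26) and at ZT4 -0.96 ± 0.29 (0.109).

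The call of Aqp4 over both times was lost without WT ZT4 replicate 3 (adjusted p = 0.0612), KO ZT4 replicate 4 (0.061), KO ZT4 replicate 6 (0.0657) or WT ZT16 replicate 5 (0.0637). Without KO ZT16 replicate 2 it passed at ZT16 (log2 fold change -1.01, adjusted p = 0.0123) and at ZT4 (-0.95, 0.0173).

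Aqp2 (ENSMUSG00000023013, chr15:99579055-99584547, plus strand), the vasopressin-regulated apical channel, had 174, 117 and 146 CPM in KO ZT16 and 132, 126 and 140.1 CPM in KO ZT4, against 168, 178 and 181 CPM in WT ZT16 and 142, 127 and 97.1 CPM in WT ZT4. The 2 genotypes overlapped at both times, through KO ZT16 replicate 2 at ZT16. Its log2 fold change was -0.27 ± 0.15 at ZT16 (adjusted p = 0.404) and 0.12 ± 0.15 at ZT4 (0.66), and -0.07 with a 95% interval of -0.30 to 0.15 over both times (0.674). With KO ZT16 replicate 2 left out, Aqp2 was called lower at ZT16 (-0.43, adjusted p = 0.0227).

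Aqp3 (ENSMUSG00000028435, chr4:41092722-41098183, minus strand), the basolateral channel for water and glycerol, had the narrowest range among the collecting duct genes. It had 61.0, 53.3 and 52.8 CPM in KO ZT16 and 54.9, 54.2 and 56.5 CPM in KO ZT4, against 62.3, 62.8 and 58.8 CPM in WT ZT16 and 50.1, 59.5 and 59.7 CPM in WT ZT4. The groups overlapped at both times. Over both times the log2 fold change was -0.09 with a 95% interval of -0.22 to 0.05 (adjusted p = 0.393).

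Aqp6 (ENSMUSG00000043144, chr15:99601400-99605477, plus strand), the vesicle channel of intercalated cells, had 13.7, 23.8 and 21.1 CPM in KO ZT16 and 23.9, 24.9 and 24.5 CPM in KO ZT4, against 22.2, 27.5 and 16.5 CPM in WT ZT16 and 30.8, 18.3 and 25.3 CPM in WT ZT4. The 3 KO ZT4 libraries were close together, and the other 3 groups were spread. Over both times its log2 fold change was -0.10 with a 95% interval of -0.45 to 0.25 (adjusted p = 0.712). At ZT16 it was -0.18 ± 0.23, and 0.011 without KO ZT16 replicate 2.

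Counted by comparison and leaving out Aqp8, 1 of 7 genes was called at ZT16 (Aqp11), 1 of 7 at ZT4 (Aqp1, where 3.29% of all genes were called) and 4 of 7 over both times. Without KO ZT16 replicate 2 the calls were 5 of 7 at ZT16 (Aqp1, Aqp2, Aqp4, Aqp7 and Aqp11), 4 of 7 at ZT4 (Aqp1, Aqp4, Aqp7 and Aqp11) and the same 4 over both times. The share of all genes called was then also higher, at 31.2%, 15.3% and 42.4%. No gene of the 7 was called higher in KO in any of these fits.

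No marker of principal or intercalated cells was called lower in KO. These markers do not place the Aqp4 difference in a cell type, and the part of the S3 markers in it was not tested. The 7 principal cell markers summed to 271 to 303 CPM in KO ZT16 and 256 to 273 CPM in KO ZT4, against 233 to 278 CPM in WT ZT16 and 224 to 230 CPM in WT ZT4, and over both times 2 of the 7 rose, where 6.04% of all genes did. These were Avpr2, the vasopressin receptor, at 0.29 ± 0.08 on the log2 scale (adjusted p = 0.0316), and Scnn1b, a subunit of the epithelial sodium channel, at 0.26 ± 0.06 (0.019). The 9 intercalated cell markers summed to 311 to 350.3 CPM in KO ZT16 and 327 to 336 CPM in KO ZT4, against 293 to 324 CPM in WT ZT16 and 290.1 to 317 CPM in WT ZT4. Of these 9, Atp6v1b1, Kit and Hmx2 rose over both times, against the same 6.04% of all genes.

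The second comparison asked how aquaporin mRNA differs between the dark phase and the light phase within each genotype. In KO, Aqp1 rose at ZT16 by 0.31 ± 0.08 on the log2 scale (adjusted p = 0.0328), with 10.5% of all genes called. In WT, Aqp1 rose by 0.29 ± 0.08 (adjusted p = 0.0478) and Aqp8 fell by 1.55 ± 0.33 on the log2 scale (adjusted p = 0.0206), with 6.50% of all genes called. The 3 ZT16 libraries lay above the 3 ZT4 libraries for Aqp1 in both genotypes, and a separation in either direction was seen in 43.3% of all genes in KO and 42.6% in WT.

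**Figure D4:**
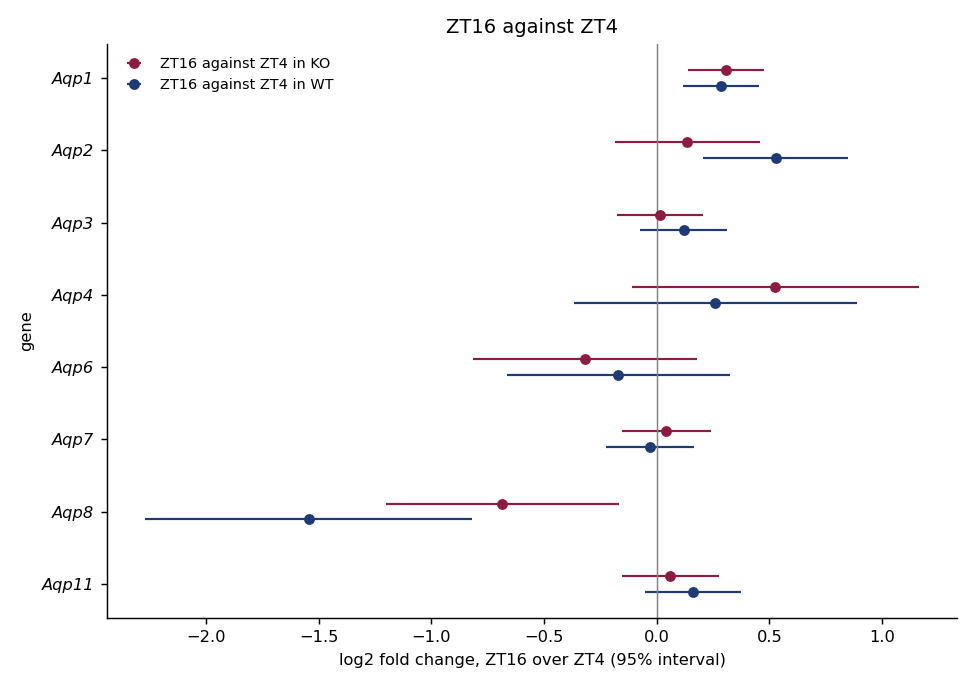
Fitted log2 fold change of ZT16 over ZT4 for each aquaporin in KO (red) and WT (blue), with 95% intervals, from 1 fit of the 12 libraries. Aqp1 lies at 0.31 and 0.29, Aqp2 at 0.13 and 0.53, and Aqp8 at -0.69 and -1.55.

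The Aqp1 rise at ZT16 in KO lost its call without WT ZT4 replicate 3 (adjusted p = 0.05) or KO ZT4 replicate 2, 4 or 6 (0.0966, 0.108 and 0.111). In WT it was lost without any 1 library other than KO ZT16 replicate 2 (adjusted p 0.0548 to 0.198), with log2 fold changes between 0.25 and 0.35, and also under upper-quartile scaling (0.0624) and with no filter on low counts (0.0732).

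Aqp8 was lower at ZT16 in all 3 WT libraries, at 0.756 to 0.902 CPM against 2.18 to 2.74 CPM at ZT4. Of all genes, 42.6% separated between the times in WT, in either direction. In KO its ZT16 and ZT4 libraries overlapped, and its log2 fold change was -0.69 ± 0.24 (adjusted p = 0.0724). Without KO ZT16 replicate 2 the KO difference was -0.93 (adjusted p = 0.0219), where 8.00% of all genes were called in KO and 33.5% in WT. The WT call was lost when any 1 of the 6 WT libraries was left out (adjusted p 0.0558 to 0.0776), while the log2 fold change stayed between -1.63 and -1.47. Under limma voom its adjusted p was 0.0621.

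Aqp2 was higher at ZT16 in WT by 0.53 ± 0.15 on the log2 scale without passing the test (adjusted p = 0.0538). Its 3 WT ZT16 libraries lay above its 3 WT ZT4 libraries, a separation in either direction that 42.6% of all genes showed. In KO the difference was 0.13 ± 0.15 (adjusted p = 0.523), and the libraries overlapped. Without KO ZT16 replicate 2 the WT difference passed (adjusted p = 0.0038), and it also passed without KO ZT16 replicate 4 (0.0347), with no filter (0.0442), with only the WT libraries (0.0161), with length and GC offsets (0.0363), under limma voom (0.0492) and under DESeq2 (0.0146). Aqp3, Aqp4, Aqp6, Aqp7 and Aqp11 did not pass the test in either genotype. Of these, Aqp4 had the widest values, at 0.53 ± 0.29 in KO and 0.26 ± 0.29 in WT.

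Whether the KO effect differed between the times was tested directly, as the effect at ZT16 minus that at ZT4. No aquaporin passed, with adjusted p = 0.9996 for each of the 8 and 0.0186% of all genes called, and none of the 8 had an unadjusted p under 0.05. The 2 that came nearest were Aqp8, at 0.86 ± 0.41 on the log2 scale (95% interval -0.03 to 1.75), and Aqp2, at -0.39 ± 0.21 (-0.85 to 0.06). Without KO ZT16 replicate 2 these were 0.61 and -0.55, again not called (adjusted p = 0.61 and 0.351). DESeq2 and limma voom likewise called none of the 8. Aqp8 was chosen for its rise in KO, from which this difference is built, so its values here only describe it.

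The 8 genes did not vary as 1 block. Over the 12 libraries, as a description across libraries that share genotype, time and scaling, log2 CPM of Aqp1 and Aqp11 had Pearson r = 0.847, and r = 0.818 for deviations from the group means. Aqp4 and Aqp6 went opposite ways within groups, with r = -0.525 over all libraries and r = -0.884 for deviations from the group means, which was -0.832 without KO ZT16 replicate 2. Among all pairs of the 8 members this r of deviations was the largest in size, so the pair is a selected extreme, and it was not tested. KO ZT16 replicate 2 had both the highest Aqp4 and the lowest Aqp6 of the KO libraries. Aqp8 and Aqp11 had r = -0.898 over all libraries, and r = 0.129 for deviations from the group means.

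**Figure D5:**
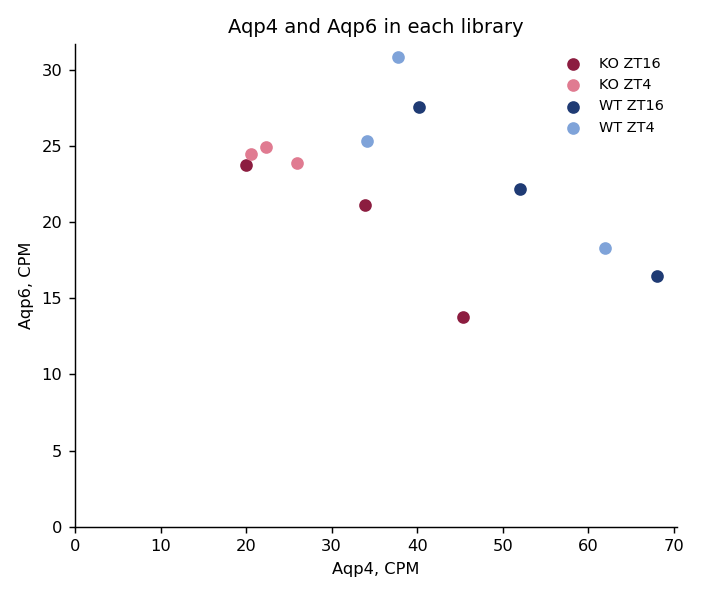
CPM of Aqp6 against CPM of Aqp4, 1 point per library, in KO ZT16, KO ZT4, WT ZT16 and WT ZT4. Within each of these groups the library highest in Aqp4 is the lowest in Aqp6, and the KO ZT4 points lie together at 20.6 to 25.9 CPM of Aqp4.

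The genes with the most similar pattern over the 12 libraries, by Pearson r of log2 CPM among 10412 genes, differed for each aquaporin. For Aqp8 they were Thra (r = 0.984), a thyroid hormone receptor, Dcdc2a (0.977) and Tmprss9 (0.973). For Aqp1 they were Chp1 (0.975), Slc9a3r1 (0.975), the scaffold of brush border transporters, and Sec13 (0.974). For Aqp11 they were Tor1b (0.968), Sord (0.956), sorbitol dehydrogenase, and Psmc1 (0.947).

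For Aqp4 the most similar were Sdsl (0.961), Dnajc22 (0.954) and Hvcn1 (0.953), and for Aqp2 they were Rcn2 (0.912), Fam216a (0.896) and Cstf2t (0.895). The nearest for Aqp6 were Gne (0.923), Ogfr (0.907) and Tie1 (0.891), and for Aqp7 Asl (0.912), Acot1 (0.889) and Bfar (0.889). Aqp3 had the lowest values, with Dusp22 (0.841), Pink1 (0.838) and Ect2 (0.815).

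Other genes of renal water handling were read from lists of vasopressin signalling, Aqp2 trafficking, Aqp2 transcription factors, countercurrent transport and osmolytes, 62 genes in all and all tested. These lists were chosen with earlier results of these data known, so counts of their called genes are a description. Over both times 8 rose and 2 fell in KO, with a median log2 fold change of 0.07 over the 62 genes, 0.01 over all genes and 11.4% of all genes called. Those that rose included Avpr2, Adcy6, the cyclase that makes cyclic AMP after vasopressin, at 0.53 ± 0.16 on the log2 scale (adjusted p = 0.0481), and Myo5b, a motor of vesicle recycling, at 0.34 ± 0.10 (0.0477). Among 11 transcription factors Gata2 (0.46), Tfcp2l1 (0.39), Grhl2 (0.34) and Nfat5 (0.21), the factor that responds to tonicity, rose. Nr1h4, the bile acid receptor FXR, was lower at -0.51 ± 0.10 (0.00701).

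Of the remaining called genes, Slc6a12, the betaine transporter, rose by 0.63 ± 0.16 on the log2 scale (adjusted p = 0.0236), and Umod, the abundant uromodulin of the thick limb, had a log2 fold change of -0.46 ± 0.10 (adjusted p = 0.00861). With 1 library left out at a time, Nr1h4 and Umod kept their calls in all 12 fits, and the 8 that rose kept theirs in 2 (Myo5b and Nfat5) to 10 (Gata2) of the 12.

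At ZT16 none of the 62 genes was called, against 4.03% of all genes, and at ZT4 2 were, against 3.29%, Slc6a12 higher and Umod lower. DESeq2 called 2 at ZT16 and 6 at ZT4, against 6.24% and 6.73% of all genes. These counts moved with single libraries: without KO ZT16 replicate 2 they were 21 at ZT16, 16 at ZT4 and 28 over both times, in a fit that called 31.2%, 15.3% and 42.4% of all genes. Over both times they were 3 to 6 without WT ZT4 replicate 1 or 3, KO ZT4 replicate 2, 4 or 6, KO ZT16 replicate 4, or WT ZT16 replicate 1 or 5, where 6.86% to 8.28% of all genes were called. At ZT4 leaving out any library other than KO ZT16 replicate 2 gave 0 or 1, with 1.40% to 3.08% of all genes called.

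Between the times, 9 of the 62 genes rose and 3 fell at ZT16 in KO, and 6 rose and 1 fell in WT. Of all genes 5.27% rose and 5.20% fell in KO, and 2.87% rose and 3.63% fell in WT. The heat shock cognate Hspa8, which takes part in Aqp2 endocytosis, had the highest value of the called genes in both genotypes, at 1.24 ± 0.14 in KO and 1.26 ± 0.14 in WT on the log2 scale. Avpr2 was higher at ZT16 in KO (0.57 ± 0.11, adjusted p = 0.0138), and in WT it had 0.38 (0.0588). Mal, a raft protein that binds Aqp2, rose in both (0.42 and 0.45), and so did Creb1, the cyclic AMP response factor (0.37 and 0.39). None of the 62 passed the test of the difference between the genotypes' time effects. Without KO ZT4 replicate 2, 4 or 6 the KO count was 5, 3 and 1, and without WT ZT4 replicate 1, 3 or 5 or WT ZT16 replicate 5 the WT count was 3, 4, 1 and 2, against 29 without KO ZT16 replicate 2. Without WT ZT16 replicate 1 the KO count was 8, and without KO ZT16 replicate 6 it was 18. The share of all genes called moved too, between 1.11% and 22.2% in KO and between 1.34% and 33.5% in WT over the 12 fits.

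The chromosomal neighbours of the aquaporins were read beside them. Aqp2, Aqp5 and Aqp6 lie in a row on chromosome 15, and Aqp7 and Aqp3 are neighbours on chromosome 4. Of 12 neighbouring genes that are no aquaporin, 11 were tested, 2 rose and 1 fell in KO over both times, against 6.04% and 5.31% of all genes. Next to Aqp8, Lcmt1 had a log2 fold change of 0.12 ± 0.07 (adjusted p = 0.3) and Zkscan2, at a mean of 0.26 CPM, rose by 0.90 ± 0.26 (0.045), a call lost in 10 of 12 fits with 1 library left out. Next to Aqp1, Ghrhr, at a mean of 0.279 CPM, had -1.77 ± 0.30 (0.00265), and Mindy4 had -0.28 ± 0.11 (0.132). Next to Aqp4, Kctd1 rose by 0.48 ± 0.10 (0.0103), and Chst9 had -0.04 ± 0.19 (0.913). No aquaporin shared exonic bases with another annotated gene.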

How the data were processed

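RNA from whole kidneys was made into stranded mRNA libraries from 500 ng, per the labels' protocols. Per the submitters' processing notes, the authors used cutadapt 1.2.1, TopHat2 2.0.9 and HTSeq 0.5.4p3 with GRCm38. Their deposited files hold raw read counts per gene. How HTSeq was set (mode, strand) and with which annotation is not given in the sources used here. Summary lines for unassigned reads were left out (not uniquely aligned, 30.8% to 43.0% of each library; no feature, 3.50% to 5.96%; ambiguous, 0.411% to 0.534%). Reads not uniquely aligned differed by group, at 33.3% to 43.0% in KO ZT16 and 30.8% to 31.3% in KO ZT4. They were 38.8% to 41.8% in WT ZT16 and 34.1% to 36.5% in WT ZT4, and KO ZT16 replicate 2 was the highest. The part of this share in the differences between groups was not tested. GENCODE M21 named 37607 of 38924 gene IDs.

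Genes passing filterByExpr (16150, all 8 aquaporins included) were TMM-scaled. The test was the quasi-likelihood test of edgeR 4.0.16 (R 4.3.3) in 1 fit of 12 libraries with 8 residual degrees of freedom, with Benjamini-Hochberg adjustment over all tested genes. CPM uses TMM library sizes, and levels per length use the union of exons. The fit was checked on simulated counts. Alternatives were DESeq2 1.42.0, limma 3.58.1 voom, other scalings and filters, the compared libraries alone, each library left out, a replicate block and an adjusted p under 0.01. Leaving out mitochondrially encoded genes, offsets for length and GC content, and correlations without KO ZT16 replicate 2 were alternatives added after seeing the data. Members and lists were chosen with earlier results of these data known. Named genes were all members, the 3 most correlated genes of each with a mean of at least 5 CPM, list genes called in a comparison (up to 4 per list), and the nearest protein-coding genes on each side. Promoter windows came from RefSeq (GRCm38.p6).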

Additional observations from a re-analysis of the deposited data

How the results depend on the processing

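The lower Aqp1 and Aqp11 over both times passed under every alternative run at an adjusted p under 0.05. The number of aquaporins called moved as follows, Aqp8 left out where KO is set against WT. At ZT16 (1 in the report) it was 2 under upper-quartile scaling, DESeq2, limma voom, without mitochondrially encoded genes and with length and GC offsets, and 0 with only the libraries compared or an adjusted p under 0.01. At ZT4 (1) it was 4 under DESeq2 and with only the libraries compared, 3 with length and GC offsets, and 0 with no filter or an adjusted p under 0.01. Over both times (4) it was 3 with no filter, where Aqp7 was lost, and 2 at an adjusted p under 0.01. Between times it was 2 in KO (1) under DESeq2 and with the offsets and 0 with only the libraries compared, the block or 0.01, and in WT (2) it was 1 under upper-quartile scaling 0 at 0.01 or with the block, and 3, with Aqp2 gained, under DESeq2, with only the libraries compared and with the offsets. With no filter (Aqp1 lost) and under limma voom (Aqp8 lost) it stayed 2, with Aqp2 gained. The share of all genes called also moved over the alternatives that kept all groups' libraries or only those compared. It ran from 1.28% to 6.90% at ZT16, 1.28% to 18.2% at ZT4 and 4.56% to 16.4% over both times. Between times it ran from 0.227% to 24.1% in KO and 1.29% to 22.8% in WT.

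For the 62 water transport genes, counts moved beside the share of all genes called, which at ZT4 was 3.29% in the report, 6.73% under DESeq2 and 18.2% with only the libraries compared, and in WT between times 6.50%, 14.4% and 22.8%. Counts were 2 at ZT16 (0) under DESeq2 and 1 with the offsets. At ZT4 (2) they were 1 under RLE scaling, 0 with a mean of at least 5 CPM or at 0.01, 6 under DESeq2, 16 with only the libraries compared and 7 with the offsets. Over both times (10) the count was 2 at 0.01. In KO between times (12) it was 1 with only the libraries compared or at 0.01 and 3 with the block. The share of all genes called in KO was then 0.227%, 0.842% and 1.17%, against 10.5% in the report. In WT (7) it was 15 under DESeq2, 20 with only the libraries compared, 2 at 0.01, 1 with the block and 13 with the offsets.

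Same-numbered libraries did not deviate together (r -0.27 to 0.05 over 6 pairs, 0 best with their own number), so the numbers are not treated as pairs. With replicate number as a block the ZT16 to ZT4 change of Aqp1 was 0.31 in KO (adjusted p = 0.092) and 0.29 in WT (0.119), and that of Aqp8 in WT was -1.55 (0.0621).

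Leaving out 1 library at a time gave 0 to 5 aquaporins at ZT16, 0 to 4 at ZT4, 2 to 4 over both times, 0 to 2 between times in KO and 0 to 3 in WT, and 0 to 21, 0 to 16, 3 to 28, 1 to 18 and 1 to 29 water transport genes in the same order. Signs that turned belonged to values that passed no test. With length and GC offsets Aqp2 at ZT4 was -0.024, Aqp3 at ZT4 0.029, Aqp7 in KO between times -0.013, Aqp3 there -0.10 and Chst9 over both times 0.10, and Aqp3 in KO between times was -0.016 under upper-quartile scaling and -0.0051 with a mean of at least 5 CPM. Leaving out 1 library, KO against WT ran from -0.017 to 0.25 for Aqp2 at ZT4, -0.11 to 0.011 for Aqp3 at ZT4, -0.36 to 0.011 for Aqp6 at ZT16, -0.20 to 0.16 for Aqp6 at ZT4 and -0.27 to 0.069 for Chst9 over both times. The difference between times ran in KO from -0.018 to 0.27 for Aqp2, -0.062 to 0.051 for Aqp3 and -0.010 to 0.10 for Aqp7, and in WT from -0.36 to 0.022 for Aqp6 and -0.091 to 0.029 for Aqp7. The difference between the genotypes' effects ran from -0.047 to 0.058 for Aqp1, -0.053 to 0.53 for Aqp4 and -0.35 to 0.039 for Aqp6.

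By the longest annotated transcript in place of all exons, the median level was 5.64 for Aqp11 and 8.29 CPM per kilobase for Aqp7, which puts Aqp11 above Aqp8 (4.20). The causes of these changes were not tested, except that a stricter threshold calls fewer genes by construction. WT Aqp8 rests on 22 to 84 reads per library, and its SE was the widest of the members at ZT16 and between times in WT.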
